A study of Homo sapiens with 12 samples.

Results

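The chaperonin TRiC, also called CCT, folds newly made cytosolic proteins. Its 8 subunit genes, TCP1, CCT2, CCT3, CCT4, CCT5, CCT6A, CCT7 and CCT8, were taken by name from a deposited table of 58302 genes. All 8 were found once each. The table holds RNA-seq read counts of 12 libraries of 2 established human lymphoma lines, OCI-LY3 and SU-DHL6, each left untreated or treated with selinexor, in 4 groups of 3 libraries. OCI-LY3 is labelled as the activated B-cell-like type of diffuse large B-cell lymphoma (ABC-DLBCL), SU-DHL6 as the germinal centre type (GCB-DLBCL), and every library has the genotype label WT. Selinexor blocks XPO1, the carrier that takes many proteins out of the nucleus. The protocol names 300 and 100 nM and 24 and 48 h without saying which library or line had which, so the lines may have been treated differently. Nothing in the labels says that replicates were separate cultures, so the p-values measure only the spread between these libraries. Each line stands here as a single cell line and not as a tumour type.

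TRiC is a barrel of a pair of stacked rings, and each ring holds 1 copy of each of the 8 subunits in a fixed order. ATP binding and hydrolysis close the barrel around the substrate, and the subunits on the TCP1, CCT2, CCT4 and CCT5 side of the ring bind ATP more tightly than CCT3, CCT6A, CCT7 and CCT8. Actin and tubulin are the classic substrates, delivered in part by the prefoldin complex. Because every complete complex needs each subunit in the same amount, the mRNAs are described below both singly and as parts of a pool.

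Library totals ranged from 14210200 to 16405842 counts, and all 8 subunits passed the filter on low counts, with 1408 to 10345 counts per library. Values in CPM below are counts scaled to a common library size by TMM, a method that sets the bulk of genes equal between libraries. The scaling factors were 0.944 to 0.962 in untreated and 0.865 to 0.887 in treated OCI-LY3, and 0.974 to 1.04 in untreated and 1.17 to 1.23 in treated SU-DHL6. XPO1 rose in both lines, by 0.99 ± 0.13 (SE) on the log2 scale in OCI-LY3 (edgeR quasi-likelihood, Benjamini-Hochberg adjusted p = 2.4e-05) and by 1.77 ± 0.13 in SU-DHL6 (adjusted p = 1.1e-07). The B-cell genes MS4A1, CD79A, CD79B and PAX5 were read in every library. Of 4 germinal centre genes, MME, LMO2 and MYBL1 were under 2 CPM in OCI-LY3 and BCL6 was at 117 to 135 CPM there, and the activated-type genes IRF4, FOXP1, CCND2 and PIM1 were all higher in untreated OCI-LY3 than in untreated SU-DHL6. Of 6 markers of other cells, LYZ, EPCAM and HBB were at 0 in every library, CD3E and CD14 reached at most 2.17 CPM, and COL1A1 was read at 22.1 to 38.0 CPM in OCI-LY3. Their part in the results was not tested.

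The subunit genes lie on 7 chromosomes, at the following GRCh38 positions. TCP1 (ENSG00000120438) lies at chr6:159778498-159789749 on the minus strand, CCT2 (ENSG00000166226) at chr12:69585334-69601570 on the plus strand, CCT3 (ENSG00000163468) at chr1:156308968-156367873 on the minus strand and CCT4 (ENSG00000115484) at chr2:61868089-61888804 on the minus strand. CCT5 (ENSG00000150753) lies at chr5:10249921-10266412 on the plus strand, CCT6A (ENSG00000146731) at chr7:56051630-56063989 on the plus strand, CCT7 (ENSG00000135624) at chr2:73233420-73253021 on the plus strand and CCT8 (ENSG00000156261) at chr21:29055805-29073797 on the minus strand.

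RefSeq promoter windows (GRCh38.p14) were matched for 7 of the 8 subunits, all but CCT6A. The stretches below lie upstream of a RefSeq start and outside annotated exons. The starts used for CCT3 and CCT7 are internal ones, so their stretches lie inside the annotated genes. They are shown because TCP1 and CCT2 rose in SU-DHL6, CCT3 and CCT7 fell there, and CCT8 moved in opposite directions in the lines. The choice is partial: CCT5 also moved in opposite directions and CCT4 also fell in SU-DHL6, and their stretches are not printed. Each is printed 5′ to 3′ on the strand of its gene, and capitals mark a match to a searched motif.
TCP1, chr6:159789750-159789811, minus strand: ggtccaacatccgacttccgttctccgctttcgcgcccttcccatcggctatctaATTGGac
CCT2, chr12:69585209-69585333, plus strand: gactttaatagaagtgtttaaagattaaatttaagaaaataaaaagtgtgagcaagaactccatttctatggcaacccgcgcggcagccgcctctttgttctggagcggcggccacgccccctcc
CCT3, chr1:156338466-156338502, minus strand: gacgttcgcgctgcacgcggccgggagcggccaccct
CCT7, chr2:73234058-73234235, plus strand: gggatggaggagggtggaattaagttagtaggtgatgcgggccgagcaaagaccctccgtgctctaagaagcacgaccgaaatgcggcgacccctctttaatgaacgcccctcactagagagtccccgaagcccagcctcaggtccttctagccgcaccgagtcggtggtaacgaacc
CCT8, chr21:29073798-29073898, minus strand: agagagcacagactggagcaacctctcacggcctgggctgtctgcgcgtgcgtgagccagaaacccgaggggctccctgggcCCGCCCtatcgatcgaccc

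In TCP1 the capitals mark CCAAT read on the opposite strand, and in CCT8 they mark GGGCGG read on the opposite strand. 6 motifs were searched on both strands in the 250 bases before each start. The pair of half-sites GAANNTTC, a core of the heat shock element, was found for TCP1, 231 bases before its start, and for 1 of the starts of CCT2, 89 bases before it. That start of CCT2 is an internal one. Its window, chr12:69585639-69585888, lies inside the annotated gene, and 223 of the 250 bases are exon of CCT2. The TCP1 site lies in an exon of the neighbouring gene MRPL18, and capitals mark the motif in it.
TCP1, chr6:159789815-159789844, minus strand: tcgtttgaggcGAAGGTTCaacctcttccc

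Of 35116 RefSeq windows of this length, 5.78% hold GAANNTTC, 6.62% hold TTCNNGAA, 42.6% hold GGGCGG, 32.0% hold CCAAT, 6.34% hold the E-box CACGTG and 14.5% hold CCGGAA. For TCP1, CCT2, CCT3 and CCT8 the motif GGGCGG was found, and for the same 4 also CCAAT, while CCT2 and CCT5 had CCGGAA. The motif TTCNNGAA was found for 0 of the 7 subunits with a window, and so was the E-box. These matches are letters in a window and not measured binding.

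The question of the main comparison is which subunit mRNAs changed with selinexor. In OCI-LY3, 4 of the 8 subunits fell, CCT8, CCT5, CCT4 and CCT6A, and 0 rose. Across all 16474 genes tested in this line 44.4% were called, 22.2% higher and 22.2% lower, so the share of subunits called in either direction was close to the background. The median log2 fold change of the 8 subunits was −0.25, beside 0.00 for all genes. In this bulk RNA, a change in every cell and a change in the mix of cells with more or less of an mRNA cannot be told apart.

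CCT8, the theta subunit, had the largest change of the 8 in this line. Untreated OCI-LY3 libraries 1, 2 and 3 had 341, 317 and 336 CPM of CCT8, and the treated libraries had 198, 192 and 232 CPM. Every treated library lay under every untreated library. CCT8 fell by 0.68 ± 0.11 (SE) on the log2 scale, to 0.626 of its untreated level (edgeR adjusted p = 0.000214).

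CCT5, the epsilon subunit on the tighter ATP-binding side, had 271, 264 and 244 CPM in untreated and 188, 179 and 204 CPM in treated OCI-LY3. The groups were again apart, and CCT5 fell by 0.45 ± 0.10 on the log2 scale (edgeR adjusted p = 0.00167). CCT4, the delta subunit of the same side, had 335, 327 and 372 CPM in untreated and 273, 242 and 275 CPM in treated libraries. Its groups did not overlap, and it fell by 0.39 ± 0.09 (edgeR adjusted p = 0.00377). CCT6A, the zeta subunit that serves most tissues, had 157, 168 and 148 CPM in untreated and 128, 120 and 121 CPM in treated libraries. All 3 treated libraries lay lower, and the decrease was 0.35 ± 0.09 on the log2 scale (edgeR adjusted p = 0.00725).

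The other 4 subunits did not pass the test in OCI-LY3, and their groups overlapped. CCT3, the gamma subunit, had 490, 468 and 458 CPM untreated and 551, 469 and 508 CPM treated, which gave 0.11 ± 0.10 on the log2 scale (edgeR adjusted p = 0.396). CCT7, the eta subunit, had 464, 410 and 510 CPM untreated and 484, 405 and 364 CPM treated, or −0.14 ± 0.12 on the log2 scale (edgeR adjusted p = 0.352). TCP1, the alpha subunit, had 129, 117 and 123 CPM untreated and 109, 124 and 110 CPM treated, or −0.11 ± 0.10 (edgeR adjusted p = 0.429). The libraries of these genes mixed, and so did those of CCT2, the beta subunit. CCT2 had 186, 179 and 204 CPM untreated and 199, 178 and 210 CPM treated, or 0.05 ± 0.11 (edgeR adjusted p = 0.760). The 4 calls in this line were kept under each of the 22 alternatives, 12 of which left out 1 library each.

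**Figure D1:**
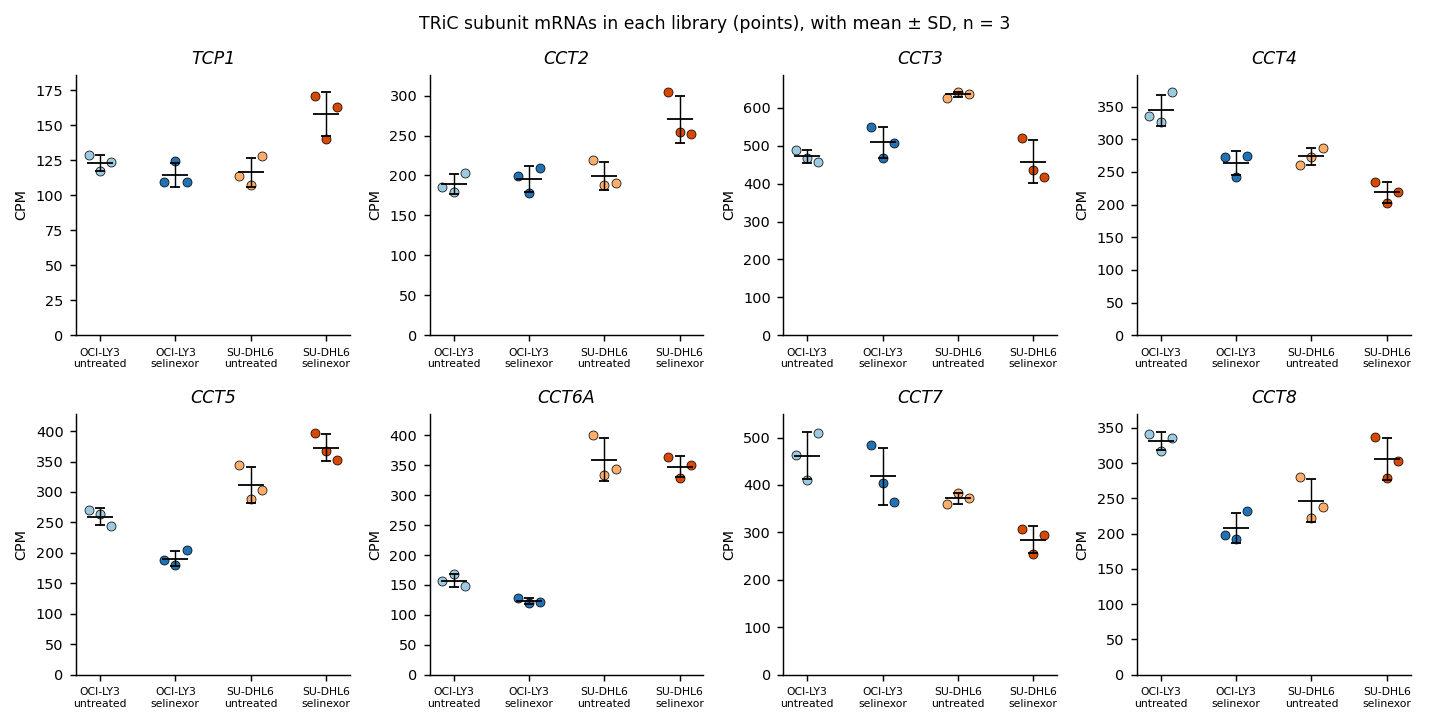
CPM (TMM-scaled, linear axis from 0) of each TRiC subunit in each library (points), with the mean and SD of the 3 libraries of each group (horizontal lines and bars). The treated OCI-LY3 points of CCT8 (192 to 232 CPM) lie under the untreated ones (317 to 341 CPM), and the SU-DHL6 points of CCT6A lie at 329 to 401 CPM, above all OCI-LY3 points.

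In SU-DHL6 the subunits split. TCP1, CCT2, CCT8 and CCT5 rose, CCT3, CCT7 and CCT4 fell, and CCT6A did not pass the test. In this line 43.2% of all genes were called, 20.4% higher and 22.8% lower, against 4 higher and 3 lower of 8 subunits. The median log2 fold change of the subunits was 0.11, beside 0.00 for all genes, and single subunits ran from −0.47 for CCT3 to 0.44 for CCT2.

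TCP1 had 114, 107 and 128 CPM in untreated and 171, 140 and 163 CPM in treated SU-DHL6. The groups did not overlap, and TCP1 rose by 0.44 ± 0.10 (SE) on the log2 scale, to 1.36 times its untreated level (edgeR adjusted p = 0.00329). CCT2 had 220, 188 and 190 CPM untreated and 304, 255 and 252 CPM treated. All treated libraries lay higher, and CCT2 rose by 0.44 ± 0.11 (edgeR adjusted p = 0.00396). CCT5 had 344, 288 and 302 CPM untreated and 397, 368 and 353 CPM treated. Its highest untreated library lay just under its lowest treated one, and the rise was 0.26 ± 0.10 (edgeR adjusted p = 0.0402). CCT8 had 281, 222 and 237 CPM untreated and 338, 279 and 303 CPM treated. Here the groups overlapped, since treated library 2 lay under untreated library 1, and the rise was 0.31 ± 0.11 (edgeR adjusted p = 0.0343).

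Of the subunits that fell, CCT3 had 627, 643 and 636 CPM in untreated and 522, 437 and 417 CPM in treated SU-DHL6. The untreated libraries were nearly equal and all lay above the treated ones, and CCT3 fell by 0.47 ± 0.10 on the log2 scale (edgeR adjusted p = 0.00155). CCT7 had 360, 384 and 372 CPM untreated and 307, 253 and 294 CPM treated. The groups did not overlap, and the decrease was 0.38 ± 0.12 (edgeR adjusted p = 0.0169). CCT4 had 261, 273 and 287 CPM untreated and 234, 203 and 219 CPM treated, again without overlap. It fell by 0.32 ± 0.09 (edgeR adjusted p = 0.0116). CCT6A had 401, 334 and 344 CPM untreated and 364, 329 and 350 CPM treated, with mixed libraries and a log2 fold change of −0.05 ± 0.09 (edgeR adjusted p = 0.716).

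4 of the 7 SU-DHL6 calls did not hold in every fit without 1 library. The CCT5 call was lost in 9 of 12 fits without 1 library, with edgeR adjusted p from 0.0520 to 0.166: without untreated OCI-LY3 library 1, 2 or 3, treated OCI-LY3 library 1 or 2, untreated SU-DHL6 library 2 or 3, or treated SU-DHL6 library 1 or 2. The CCT8 call was lost in 6 of 12, with adjusted p from 0.0502 to 0.150: without untreated OCI-LY3 library 1 or 3, untreated SU-DHL6 library 2 or 3, or treated SU-DHL6 library 1 or 3. The calls of CCT4 and CCT7 were lost without untreated SU-DHL6 library 3 (adjusted p = 0.0816 and 0.0605) and without treated SU-DHL6 library 2 (adjusted p = 0.0558 and 0.0799). The calls of TCP1, CCT2 and CCT3 in this line were kept in all 12 of these fits. With each line fitted alone, the calls of CCT5 (adjusted p = 0.0878) and CCT8 (adjusted p = 0.0666) were also lost.

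The SU-DHL6 split also depended on the scaling of the libraries. With total counts in place of TMM the median of all genes moved from 0.00 to 0.27 on the log2 scale in this line, and all genes called went from 3365 higher and 3758 lower to 5451 higher and 2367 lower. On that scale TCP1 (0.71), CCT2 (0.70), CCT8 (0.57) and CCT5 (0.52) were called higher, while 0 subunits were called lower, with −0.21 for CCT3 (edgeR adjusted p = 0.0692), −0.12 for CCT7 (adjusted p = 0.406) and −0.06 for CCT4 (adjusted p = 0.615). CCT6A changed sign, to 0.21, without a call on either scale. CCT3, CCT7 and CCT4 lay under the all-gene median of that scale, and TCP1, CCT2, CCT8 and CCT5 above it. A change of library scaling moves all genes of a comparison by nearly the same amount. These places beside the median were therefore largely fixed beforehand and add no separate evidence for the split. In OCI-LY3 total counts moved the median of all genes to −0.09 and left CCT8, CCT5, CCT4 and CCT6A called lower, while CCT2 (−0.07) and CCT3 (−0.01) changed sign without a call.

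Base composition moved with the groups in SU-DHL6. The mean GC content of the transcripts, weighted by counts, was 49.7 to 50.7% in untreated and 48.9 to 49.3% in treated SU-DHL6, beside 50.7 to 51.0% in untreated and 50.6 to 51.2% in treated OCI-LY3. CCT3 (51.2% GC) and CCT7 (51.3%) are the subunits with the most GC, and the other 6 have 43.1 to 45.9%. With offsets for GC and length in each library, the SU-DHL6 change was −0.25 for CCT3 (edgeR adjusted p = 0.0149) and −0.29 for CCT4 (adjusted p = 0.00843), both still called lower. The CCT7 call was lost with these offsets (−0.15, adjusted p = 0.278). TCP1 (0.43), CCT2 (0.54), CCT8 (0.32) and CCT5 (0.22) were called higher with them too.

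**Figure D2:**
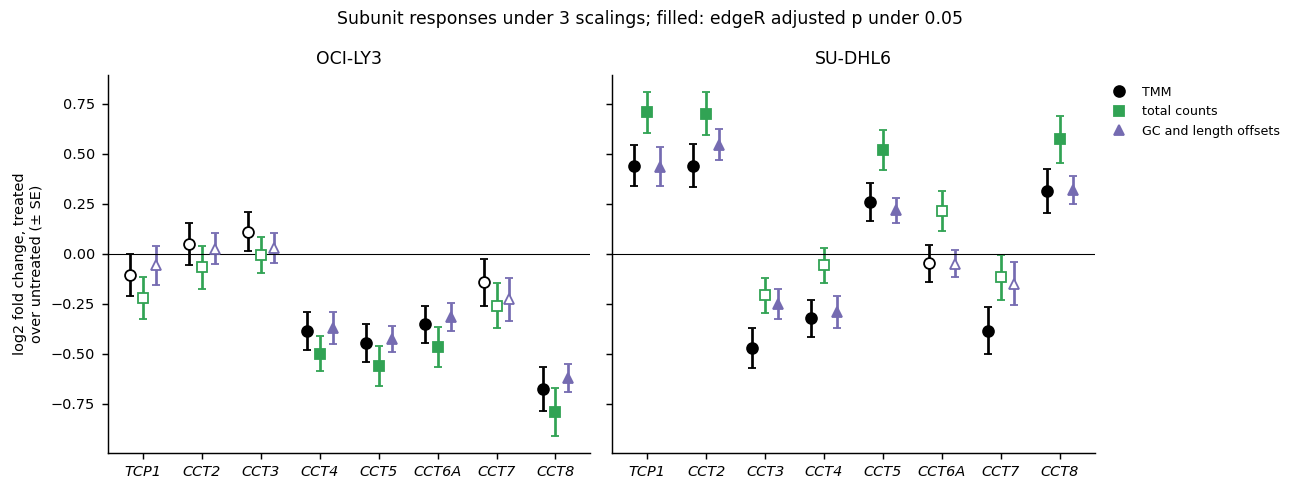
Log2 fold change with selinexor (± SE) of each subunit in OCI-LY3 and SU-DHL6 under TMM scaling, total counts, and offsets for GC and length; filled symbols passed an edgeR adjusted p of 0.05. In OCI-LY3 the same 4 subunits are filled below 0 on all 3 scales, and in SU-DHL6 CCT3 runs from −0.47 (TMM) to −0.21 (total counts).

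Whether a subunit responded differently in the 2 lines was tested with the interaction term. 3 subunits responded higher in SU-DHL6 than in OCI-LY3 and 1 lower, beside 36.9% of all genes called in either direction, 17% higher and 19.9% lower. The difference was 0.99 ± 0.16 (SE) on the log2 scale for CCT8 (edgeR adjusted p = 0.00025), 0.71 ± 0.14 for CCT5 (adjusted p = 0.00099) and 0.55 ± 0.15 for TCP1 (adjusted p = 0.00901). For CCT3 it was −0.58 ± 0.14 (adjusted p = 0.00486). CCT8 and CCT5 were the subunits called in opposite directions in the lines, each lower in OCI-LY3 and higher in SU-DHL6.

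For the other 4 subunits the difference did not pass the test. It was 0.39 ± 0.15 for CCT2 (edgeR adjusted p = 0.0530), 0.30 ± 0.13 for CCT6A (adjusted p = 0.0877), −0.24 ± 0.17 for CCT7 (adjusted p = 0.282) and 0.06 ± 0.13 for CCT4 (adjusted p = 0.767). CCT4 was the subunit called lower in both lines under TMM scaling. CCT2 passed without treated OCI-LY3 library 3 (adjusted p = 0.0472) and without untreated SU-DHL6 library 1 (adjusted p = 0.0217), and CCT6A passed without the latter (adjusted p = 0.0176). With total counts, where the median of all genes was 0.35, CCT2 (adjusted p = 0.00114), CCT6A (0.00156) and CCT4 (0.0108) passed. CCT2 and CCT6A also passed with GC and length offsets (adjusted p = 0.00231 and 0.0498) and with a filter of 10 CPM in 3 libraries (0.0251 and 0.0338). CCT2 passed with limma-voom too (adjusted p = 0.0475). The CCT3 difference was not called with total counts (−0.20, adjusted p = 0.224) or with GC and length offsets (−0.28, adjusted p = 0.0548).

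**Figure D3:**
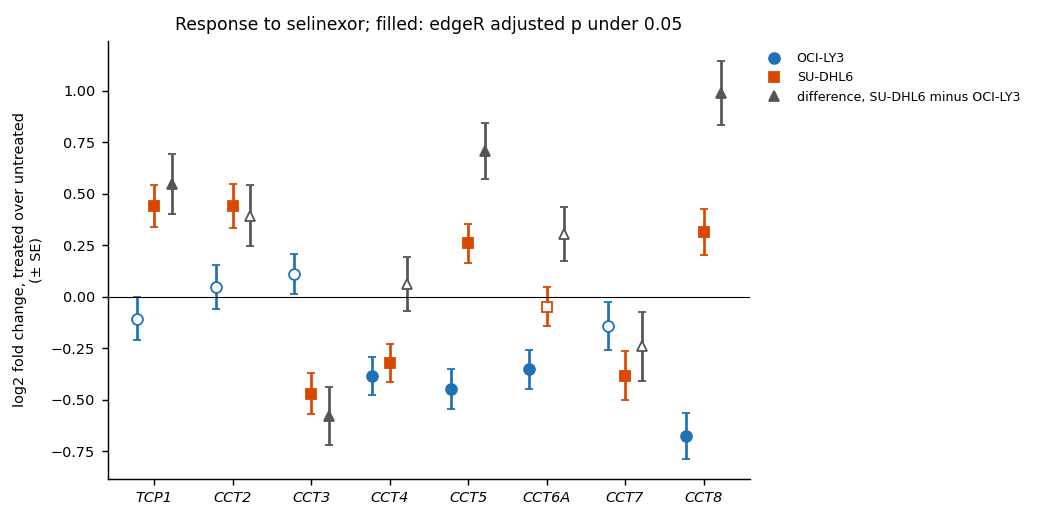
Log2 fold change with selinexor (± SE, edgeR) of each subunit in OCI-LY3 (circles) and SU-DHL6 (squares), and the difference of the responses, SU-DHL6 minus OCI-LY3 (triangles); filled symbols passed an adjusted p of 0.05. CCT8 shows the widest gap, from −0.68 in OCI-LY3 to 0.31 in SU-DHL6.

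Before treatment the lines differed most in CCT6A. It had 148 to 168 CPM in untreated OCI-LY3 and 334 to 401 CPM in untreated SU-DHL6, so that every SU-DHL6 library lay far above every OCI-LY3 library. The log2 difference, OCI-LY3 minus SU-DHL6, was −1.19 ± 0.09 (edgeR adjusted p = 4.55e-08). CCT3 (−0.43, adjusted p = 0.00148) and CCT5 (−0.26, adjusted p = 0.0248) were also lower in OCI-LY3, while CCT8 (0.43, adjusted p = 0.00355), CCT4 (0.33, adjusted p = 0.00584) and CCT7 (0.31, adjusted p = 0.0306) were higher there. TCP1 (0.08) and CCT2 (−0.07) did not pass the test. Of all genes 67.3% were called between the untreated lines, 33.6% higher and 33.7% lower in OCI-LY3, beside 3 and 3 of the subunits.

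2 of these 6 calls depended on single libraries. The CCT5 call was lost without untreated OCI-LY3 library 2 or 3, treated OCI-LY3 library 1 or untreated SU-DHL6 library 1 (edgeR adjusted p from 0.0516 to 0.103). The CCT7 call was lost without untreated OCI-LY3 library 1 or 3 or untreated SU-DHL6 library 1 or 3 (adjusted p from 0.0544 to 0.133). The CCT5 call was also lost with GC and length offsets (−0.15, adjusted p = 0.0569) and with no filter on low counts (−0.24, adjusted p = 0.0642), and the CCT7 call with total counts (0.24, adjusted p = 0.0700).

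After treatment 5 subunits were lower in OCI-LY3 than in SU-DHL6, and CCT7 and CCT4 were higher. These libraries also enter the comparisons above, so the values stand beside them and add no separate evidence. The log2 difference was −1.5 ± 0.10 for CCT6A (edgeR adjusted p = 3.6e-09), −0.97 ± 0.10 for CCT5 (adjusted p = 4.55e-07), −0.56 ± 0.11 for CCT8, −0.47 ± 0.11 for CCT2 and −0.46 ± 0.10 for TCP1. It was 0.55 ± 0.12 for CCT7, 0.27 ± 0.09 for CCT4 and 0.15 ± 0.10 for CCT3, which did not pass the test (adjusted p = 0.180). CCT8 was thus called higher in untreated and lower in treated OCI-LY3 than in SU-DHL6. Of all genes 72% were called, 36.2% higher and 35.8% lower. Without treated SU-DHL6 library 2 the CCT4 call was lost (adjusted p = 0.0770), and without treated SU-DHL6 library 1 CCT3 was called higher (0.26, adjusted p = 0.0231). With total counts, where the median of all genes was −0.47, CCT3 (−0.30) and CCT4 (−0.18) changed sign and CCT7 (0.10) was not called.

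Levels of different subunits are compared in FPKM, the authors' value per length of gene and depth, which is not TMM-scaled. In untreated OCI-LY3 the order was CCT4 at 78.5 ± 5.33 FPKM (SD, n = 3), CCT7 at 70.3 ± 7.67, CCT3 at 59.6 ± 2.63, CCT8 at 55.0 ± 2.59, CCT2 at 25.7 ± 1.71, CCT6A at 24.6 ± 1.55, CCT5 at 24.1 ± 1.44 and TCP1 at 11 ± 0.62. CCT4 and CCT7 overlapped in their libraries, and so did CCT7 and CCT3. CCT2, CCT6A and CCT5 differed by less than their spread. In untreated SU-DHL6 the order was CCT3 at 84.1 ± 2.15 FPKM, CCT4 at 65.5 ± 1.46, CCT7 at 59.4 ± 1.25, CCT6A at 59.1 ± 8.13, CCT8 at 43.1 ± 6.82, CCT5 at 30.4 ± 3.93, CCT2 at 28.4 ± 3.54 and TCP1 at 10.9 ± 0.914. CCT7 and CCT6A, and CCT5 and CCT2, were neighbours that differed by less than their spread. By FPKM TCP1 was the lowest in each of the 4 groups.

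In treated OCI-LY3 the level of CCT3 was 59.3 ± 4.11 FPKM (SD, n = 3), of CCT7 58.7 ± 7.74, of CCT4 55.5 ± 3.71, of CCT8 31.8 ± 3.51, of CCT2 24.5 ± 2.04, of CCT6A 17.8 ± 0.404, of CCT5 16.3 ± 1.18 and of TCP1 9.43 ± 0.765. The leading 3 of this group could not be ordered beyond their spread, and the libraries of CCT6A and CCT5 overlapped. In treated SU-DHL6 the level of CCT3 was 72.8 ± 6.94 FPKM, of CCT6A 68.5 ± 3.28, of CCT8 64.0 ± 5.33, of CCT4 62.9 ± 3.97, of CCT7 54.7 ± 5.26, of CCT2 46.2 ± 3.91, of CCT5 43.5 ± 1.45 and of TCP1 17.7 ± 1.74. From CCT3 to CCT4 the libraries of each pair of neighbours overlapped, and so did those of CCT7 and CCT2, and of CCT2 and CCT5.

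The order of levels depends on the length that each value was divided by. The FPKM imply gene lengths from 4165 bases (CCT4) to 10649 bases (TCP1), while the longest GENCODE 29 transcripts of the 8 run from 2005 bases (CCT8) to 3675 bases (CCT5). With counts per base of the longest transcript, a scale chosen after seeing the data, CCT4 made up 13.5% of the pool in untreated OCI-LY3 in place of 22.5% by FPKM. In treated OCI-LY3 TCP1 (5.21% ± 0.671) was then not the lowest, with CCT6A at 5.13% ± 0.143, a gap within the spread. CCT3 had the highest mean share of both SU-DHL6 groups and of treated OCI-LY3 on either scale. By FPKM its lead over CCT7 in treated OCI-LY3 was within the spread (21.7% ± 0.499 and 21.5% ± 2.51). So was its lead over CCT6A in treated SU-DHL6 by FPKM (16.9% ± 1.03 and 15.9% ± 0.591).

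As shares of the summed FPKM of the 8 subunits, a measure that no scaling of a whole library changes, the pool had another make-up in treated than in untreated libraries. In OCI-LY3 the share of CCT8 went from 15.8% ± 0.310 (SD, n = 3) to 11.6% ± 1.22, and that of CCT3 from 17.1% ± 0.919 to 21.7% ± 0.499. The libraries of the 2 groups did not overlap for either subunit. In SU-DHL6 both moved the other way, CCT8 from 11.3% ± 1.03 to 14.9% ± 0.321 and CCT3 from 22.1% ± 0.948 to 16.9% ± 1.03. The share of CCT2 was higher in all treated libraries of both lines, from 7.36% ± 0.267 to 8.97% ± 0.541 in OCI-LY3 and from 7.45% ± 0.435 to 10.7% ± 0.439 in SU-DHL6, and that of CCT4 was lower in all of them, from 22.5% ± 0.924 to 20.3% ± 0.716 and from 17.2% ± 1.18 to 14.6% ± 0.320. The shares of CCT6A in untreated and treated libraries overlapped in each line, at 7.07% ± 0.732 and 6.51% ± 0.199 in OCI-LY3 and 15.5% ± 1.09 and 15.9% ± 0.591 in SU-DHL6. With 3 libraries a group these shares were not tested. Effects of GC and length on single genes were not taken out of the shares. With offsets for them the SU-DHL6 log2 fold change of CCT3 was −0.25 in place of −0.47, and that of CCT7 −0.15 in place of −0.38.

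**Figure D4:**
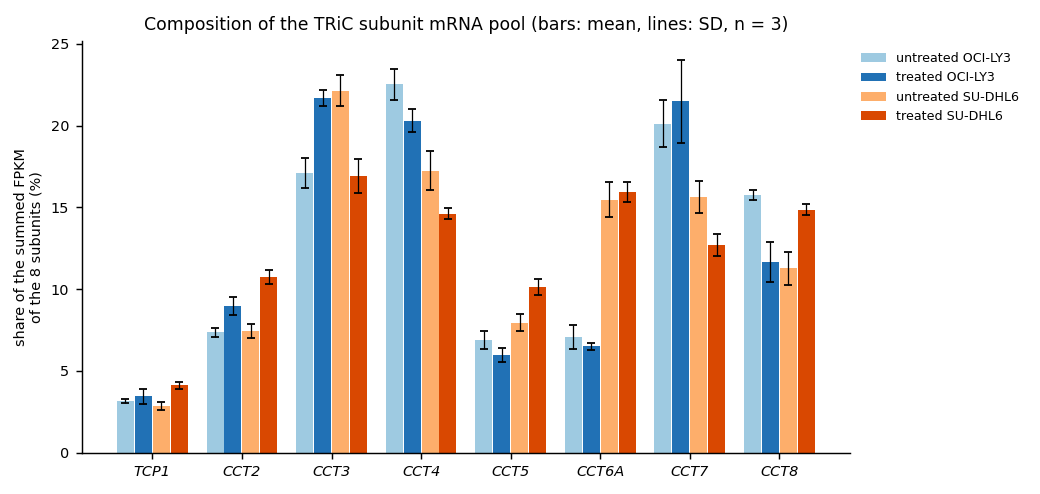
Share (%, axis from 0) of each subunit in the summed FPKM of the 8 TRiC subunits, as the mean of 3 libraries per group (bars) with SD (lines). The bars of CCT3 and CCT8 shift in opposite directions in the lines, and CCT6A holds 6.51 to 7.07% in OCI-LY3 and 15.5 to 15.9% in SU-DHL6.

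The summed level of the 8 subunits was 332 to 359 FPKM in untreated and 259 to 284 FPKM in treated OCI-LY3, without overlap. In TMM-scaled CPM the sums were 2250 to 2395 and 1910 to 2131, also without overlap. In SU-DHL6 the sum was 364 to 409 FPKM untreated and 402 to 457 FPKM treated, while in TMM-scaled CPM it was 2439 to 2608 and 2264 to 2636. The direction of the SU-DHL6 mean thus differed between the scales, and the groups overlapped on both.

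Split by the ATP-binding sides of the ring, the SU-DHL6 responses had a median log2 fold change of 0.35 for the tighter side, with TCP1, CCT2 and CCT5 higher and CCT4 lower. The median was −0.22 for the other side, with CCT8 higher and CCT3 and CCT7 lower. In OCI-LY3 both sides had a median of −0.25, each with 2 subunits lower. With total counts, where the median of all genes was 0.27 in SU-DHL6, the SU-DHL6 medians were 0.61 and 0.05, with 0 subunits lower. The sign of the median of CCT3, CCT6A, CCT7 and CCT8 thus depended on the scaling. With GC and length offsets the median of all genes in SU-DHL6 was 0.02. The tighter side then had a median of 0.33, with 3 subunits higher and 1 lower. The other side had −0.10, with 1 higher and 1 lower. With 4 genes a side, these medians are a description.

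Across all 12 libraries, the log2 CPM of the subunits did not move as 1 block. Over the 28 pairs of subunits the median Pearson r was 0.17, from −0.72 (CCT2 with CCT7) to 0.91 (CCT5 with CCT6A), and these points share line, treatment and depth. With the mean of the other 7, CCT5 had r = 0.86, CCT8 0.52, CCT6A 0.50, CCT2 0.44, TCP1 0.43, CCT3 0.05, CCT4 −0.28 and CCT7 −0.57. Of other genes with a mean log2 CPM of 3 or more, 99.3% had a lower r with the same mean than CCT5. That share was 87.5% for CCT6A, 71.1% for CCT8 and 27.7 to 69.7% for the rest. As deviations from the 4 group means the pairs had a median r of 0.33, and CCT2 (0.79) and CCT8 (0.70) were most like the mean of the others. Among the 9256 genes whose log2 CPM averaged 3 or more, those most like the mean of the subunits over the 12 libraries were TTC33 (r = 0.952), SRSF1 (0.941), CCNH (0.940), SERBP1 (0.940) and BZW2 (0.935). As deviations from the group means they were IFT52 (0.967), AIMP2 (0.956), UBE2N (0.954), OSER1 (0.939) and EMC7 (0.933).

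The paralogue CCT6B, a zeta subunit known from testis, had 0.65 to 2.37 CPM over the 12 libraries. Its level in untreated libraries was 2.37, 1.47 and 1.69 CPM in OCI-LY3 and 0.950, 1.12 and 0.650 CPM in SU-DHL6, low in both lines. It was called higher in untreated OCI-LY3 (1.01 ± 0.35, edgeR adjusted p = 0.0194), and its responses to selinexor did not pass the test (adjusted p = 0.106 and 0.206). Per length, its group means were 0.155 to 0.300 FPKM, beside 17.8 to 68.5 FPKM for CCT6A.

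Several subunit genes share sequence with others. Reads of pseudogenes were few: CCT6P1 had 20 to 256 counts per library, CCT6P3 23 to 122 and CCT8P1 21 to 56, and adding them to their parent genes changed no subunit call. The exons of TCP1 overlap those of ACAT2 on the opposite strand by 397 bases, those of CCT4 overlap COMMD1 by 81 bases, and those of CCT5 overlap the antisense gene AC012640.4 (0 to 9 counts) by 1757 bases. Whether counting used strand is not given in the sources used here, so reads of such pairs cannot be told apart. ACAT2 fell in SU-DHL6 (−0.95 ± 0.09, edgeR adjusted p = 2.8e-06), where TCP1 rose.

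The partners of TRiC were read from the same fit. Prefoldin, which hands unfolded actin and tubulin to TRiC, had 1 of 6 subunits higher and 1 lower in OCI-LY3, and 2 higher and 1 lower in SU-DHL6. Of all genes 22.2% were higher and 22.2% lower in OCI-LY3, and 20.4% and 22.8% in SU-DHL6, so these counts were close to the background. PFDN5 stood out, with 72.9, 73.6 and 65.1 CPM in untreated and 134, 169 and 192 CPM in treated OCI-LY3, against 150, 185 and 179 CPM in untreated and 143, 112 and 132 CPM in treated SU-DHL6. It rose by 1.23 ± 0.14 in the former and fell by 0.41 ± 0.14 on the log2 scale in the latter (edgeR adjusted p = 7.25e-06 and 0.0259), and the difference of −1.63 ± 0.19 also passed (adjusted p = 2.2e-05). PFDN2 (0.62 ± 0.12) and PFDN6 (0.48 ± 0.12) rose in SU-DHL6, and VBP1 (−0.31 ± 0.12, adjusted p = 0.0455) fell in OCI-LY3. With total counts 0 prefoldin subunits were called lower in SU-DHL6 and 2 in OCI-LY3, beside 2367 and 4388 of all 16474 genes. The VBP1 call was lost with DESeq2 and in the fits without each single OCI-LY3 library or without treated SU-DHL6 library 2 or 3. The PFDN5 call in SU-DHL6 was lost without untreated library 2 or 3 or treated library 2 or 3 of that line.

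Of 7 genes of the prefoldin-like complex and its R2TP partner, 1 was higher and 3 lower in OCI-LY3, and 2 were higher and 2 lower in SU-DHL6, beside 22.2% and 22.2% of all genes in the former line and 20.4% and 22.8% in the latter. UXT, a prefoldin-like subunit, rose in OCI-LY3 (0.63 ± 0.13) and fell in SU-DHL6 (−0.82 ± 0.13). RPAP3, the R2TP scaffold, did the reverse (−0.44 ± 0.13 and 0.83 ± 0.13). The differences between the lines passed the test for both (edgeR adjusted p = 4.6e-05 and 9.8e-05). RUVBL2, an R2TP ATPase, fell in both lines (−0.40 ± 0.11 and −0.56 ± 0.11). Of 3 phosducin-like cofactors tested of 4 listed, PDCL (0.28 ± 0.11) and PDCL3 (0.56 ± 0.16) rose in OCI-LY3, and 0 were called in SU-DHL6 by edgeR, beside 22.2% and 20.4% of all genes higher in these lines. Total counts called 1 higher in OCI-LY3 and 2 in SU-DHL6, beside 2939 and 5451 of all 16474 genes. In OCI-LY3 1 of the 2 calls was lost in the fits without each single library of that line and without treated SU-DHL6 library 1.

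Of 6 tubulin folding cofactors, which take tubulin over from TRiC, 2 fell in OCI-LY3, and 3 fell and 1 rose in SU-DHL6, beside 22.2% of all genes lower in OCI-LY3, and 22.8% lower and 20.4% higher in SU-DHL6. ARL2 fell in both (−0.77 ± 0.13 and −0.89 ± 0.14), as did TBCD (−0.38 ± 0.11 and −1.01 ± 0.11), while TBCC rose in SU-DHL6 (0.40 ± 0.10). Total counts called 4 lower in OCI-LY3, and 2 lower and 2 higher in SU-DHL6. Of all 16474 genes they called 4388 lower in OCI-LY3, and 2367 lower and 5451 higher in SU-DHL6. Under TMM without treated OCI-LY3 library 3 the OCI-LY3 count of lower cofactors was 1.

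Of 22 tested genes for known TRiC substrates, 11 were lower and 1 higher in OCI-LY3, and 16 were lower and 1 higher in SU-DHL6, against 22.2% and 22.8% of all genes lower. Their medians were −0.48 and −0.74 on the log2 scale. The tubulin genes TUBB (−1.07 ± 0.09 and −1.52 ± 0.09) and TUBA1B (−1.08 ± 0.10 and −1.68 ± 0.10) fell in both lines. TUBB2A had 2.86, 2.95 and 3.97 CPM in untreated OCI-LY3 and 183, 223 and 217 CPM in untreated SU-DHL6, and fell to 47.5, 45.2 and 48.6 CPM in treated SU-DHL6. The cell cycle substrates CCNE1 (−1.36 ± 0.16 and −3.26 ± 0.19), PLK1 (−1.85 ± 0.15 and −1.25 ± 0.15) and CDC20 (−1.51 ± 0.12 and −0.75 ± 0.12) fell too. STAT3 was the member that rose, in both lines (0.68 ± 0.10 and 1.44 ± 0.10). ACTB, the cytoplasmic beta actin, was not called in either line (0.23 ± 0.13 and −0.05 ± 0.13), and ACTG1 was not called in OCI-LY3 (0.32 ± 0.23) and fell in SU-DHL6 (−1.29 ± 0.23), with a difference between the lines that passed (−1.61 ± 0.33, edgeR adjusted p = 0.00243). With total counts 14 were lower in OCI-LY3 and 15 in SU-DHL6, beside 4388 and 2367 of all 16474 genes.

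Other chaperones also split between the lines. Of 14, 5 were higher and 6 lower in OCI-LY3, while 10 were higher and 1 lower in SU-DHL6, beside 22.2% and 22.2% of all genes in OCI-LY3 and 20.4% and 22.8% in SU-DHL6. By the test of the difference 10 responded higher in SU-DHL6 and 1 lower, STIP1 (−0.40 ± 0.11, edgeR adjusted p = 0.0122), beside 17% and 19.9% of all genes. The STIP1 difference was not called with total counts, with GC and length offsets or with no filter on low counts. HSPH1 (0.75 ± 0.11 and 1.87 ± 0.11), DNAJA1 (1.11 ± 0.11 and 1.84 ± 0.11) and HSP90AA1 (0.49 ± 0.11 and 1.63 ± 0.11) rose in both lines. HSPA8 (−0.35 ± 0.12 and 0.81 ± 0.12), HSPA4 (−0.46 ± 0.09 and 0.51 ± 0.09), HSP90AB1 (−0.33 ± 0.08 and 0.35 ± 0.08) and HSPA9 (−0.41 ± 0.10 and 0.35 ± 0.10) fell in OCI-LY3 and rose in SU-DHL6, the same signs as CCT5 and CCT8. TRAP1, the mitochondrial HSP90, fell in both (−0.96 ± 0.14 and −1.22 ± 0.14). With total counts 12 were higher in SU-DHL6, and 5 higher and 6 lower in OCI-LY3 as under TMM. On that scale 5451 of all 16474 genes were higher in SU-DHL6, and 2939 were higher and 4388 lower in OCI-LY3.

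HSF1, the main heat shock transcription factor, had 91.8, 87.5 and 107 CPM in untreated and 157, 130 and 117 CPM in treated OCI-LY3. It had 76.0, 129 and 122 CPM in untreated and 55.0, 48.1 and 62.4 CPM in treated SU-DHL6. Its mRNA rose in OCI-LY3 (0.50 ± 0.18, edgeR adjusted p = 0.0382) and fell in SU-DHL6 (−0.98 ± 0.18, adjusted p = 0.000727). HSF2 fell in SU-DHL6 (−0.54 ± 0.16, adjusted p = 0.0156) and was not called in OCI-LY3 (−0.36 ± 0.17, adjusted p = 0.101).

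**Figure D5:**
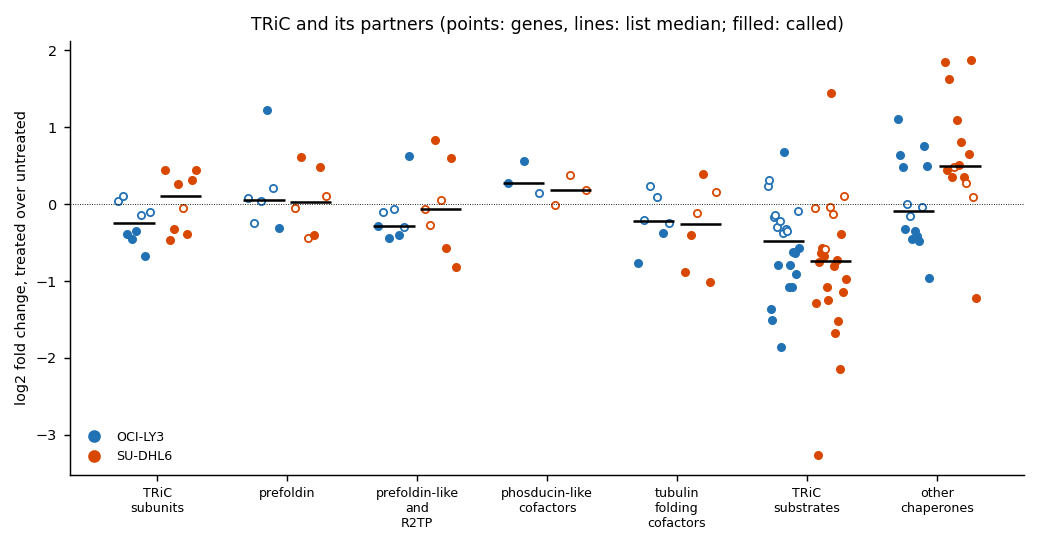
Log2 fold change with selinexor of each TRiC subunit and each gene of 6 partner lists in OCI-LY3 (blue) and SU-DHL6 (orange); filled points passed an edgeR adjusted p of 0.05 and black lines are list medians. The TRiC subunits stay between −0.68 and 0.44, the substrates have medians of −0.48 and −0.74, and the other chaperones reach 1.87 in SU-DHL6.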

How the data were processed

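RNA of 12 libraries was sequenced. The deposited table gives, per the file headers, read counts per gene and FPKM (scaled to counted reads and gene length). The sources used here do not give the aligner, the counter or the strand setting, and the builds GRCm38 and mm10 listed in the submitters' processing notes are mouse builds, while 58039 of the 58302 identifiers are human ones of GENCODE 29. Counts were fitted with edgeR 4.0.16 (filterByExpr, TMM, robust quasi-likelihood, 1 coefficient per group) in R 4.3.3, over 16474 genes, with Benjamini-Hochberg adjustment over all of them and a threshold of 0.05; the script was tested on simulated data. FPKM served for levels only. Alternatives were other scalings and filters, DESeq2 1.42.0, limma-voom (limma 3.58.1), a replicate block, each line alone, pseudogene sums and leaving out each library. The members and lists were chosen with earlier results of these data known. Named were the 8 subunits, CCT6B, XPO1, HSF1, HSF2, the list members of lowest adjusted p, members needed to describe a count, and the 5 genes most like the subunit mean; further list members named were chosen after their values were seen. Replicates of a group differed beyond sampling noise, so none was counted as a duplicate. Promoters are RefSeq windows. No p-value was adjusted over a list. 1 cell type marker of the lists is not reported here.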

Additional observations from a re-analysis of the deposited data

Results flagged for a closer look

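4 of the 8 subunits responded differently to selinexor in the 2 lines by the test of the difference itself (edgeR, Benjamini-Hochberg adjusted over all genes). Of all genes 36.9% were called in the same test. The response in SU-DHL6 minus that in OCI-LY3 was 0.99 on the log2 scale for CCT8, where untreated and treated means were 332 and 207 CPM in OCI-LY3 and 247 and 306 CPM in SU-DHL6. It was 0.71 for CCT5, with means of 260 and 190 CPM in OCI-LY3 and 311 and 373 CPM in SU-DHL6. It was 0.55 for TCP1, with means of 123 and 114 CPM in OCI-LY3 and 116 and 158 CPM in SU-DHL6. It was −0.58 for CCT3, with means of 472 and 509 CPM in OCI-LY3 and 635 and 458 CPM in SU-DHL6. The CCT3 difference was not called with total counts (edgeR adjusted p = 0.224) or with GC and length offsets (adjusted p = 0.0548). The labels do not say whether the lines had the same dose and time, so line and treatment schedule cannot be told apart.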

How the results depend on the processing

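Of the subunit fold changes under the 10 alternatives that left out no library, 349 stayed on their side of the threshold. A further 16 lost and 9 gained a call, and 2 changed sign with a call in either fit. The 349 include changes of sign without a call, such as that of CCT6A in SU-DHL6 with total counts. Total counts in place of TMM gave subunit medians of −0.36 in OCI-LY3, 0.37 in SU-DHL6, 0.72 for the difference and −0.91 between the treated lines. The all-gene medians on that scale were −0.09, 0.27, 0.35 and −0.47. Total counts left 0 subunits lower in SU-DHL6, 6 higher and 0 lower in the difference, and 0 higher in treated OCI-LY3. In that last comparison CCT3 (−0.30) and CCT4 (−0.18) reversed. Of all 16474 genes 5451 were higher and 2367 lower in SU-DHL6 with total counts. In the difference 4891 were higher and 1817 lower, and between the treated lines 4317 and 8165. GC and length offsets gave 5 higher and 0 lower in the difference, and medians of 0.16 between the untreated and −0.32 between the treated lines. Beside them stood 3027 higher and 3209 lower of 16415 genes in the difference, and all-gene medians of −0.01 and −0.04. At least 10 CPM in 3 libraries gave 5 higher in the difference, beside 2387 of 10541 genes. Each line alone left 2 higher in SU-DHL6, beside 3183 of 14781 genes. Leaving out 1 library gave 2 to 4 subunits higher and 1 to 3 lower in SU-DHL6, 3 to 5 higher in the difference, 1 to 3 higher between the treated lines, and 4 lower in OCI-LY3 in every case. Beyond the scalings' own construction, the cause was not tested.

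Libraries of the same replicate number did not deviate alike, judged by deviations of log2 CPM from the group means over well-expressed genes. With 3 libraries a group this cannot tell whether they were handled as pairs. Untreated and treated libraries of the same number had r = −0.15, −0.03 and −0.12 in OCI-LY3 and −0.20, −0.12 and 0.05 in SU-DHL6. Those of different number had r from −0.01 to 0.13 in OCI-LY3 and from −0.18 to 0.22 in SU-DHL6. With the replicate block, calls over all genes went to 3305 higher and 3280 lower in OCI-LY3 and 2964 and 3396 in SU-DHL6. CCT5 was then not called in SU-DHL6 (0.26, edgeR adjusted p = 0.0723) or between the untreated lines (−0.26, adjusted p = 0.0504), nor was CCT7 between them (0.31, adjusted p = 0.0625), and CCT2 passed in the difference (0.39, adjusted p = 0.0450).

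With 3 libraries a group, changes of about 0.3 on the log2 scale lay near the threshold. The length behind the FPKM moved 24 of 32 subunit shares by more than 1 SD.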
